A study of Mus musculus with 6 samples.

Results

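The heat shock chaperones described here are 10 genes: the heat shock transcription factor Hsf1, the cytosolic HSP90 genes Hsp90aa1 and Hsp90ab1, the cytosolic HSP70 genes Hspa8, Hspa1a and Hspa1b, the helpers Hsph1, Dnajb1 and Bag3, and the small heat shock protein gene Hspb1. They were taken by symbol, with earlier results of these data known, and all 10 were found among the 43283 genes of the deposited table. Mouse muscle stem cells spent 24 h in culture with prostaglandin E2 (PGE2), a lipid signal made in inflamed and damaged tissue, or with its solvent DMSO (Vehicle), and RNA was sequenced in 3 libraries per group. Both groups came from female C57BL/6 mice, aged 8 to 12 weeks in one label and 2 to 4 months in another, and carried no other agent or allele that the labels name. The cells were sorted from hindlimb muscle by CD34 and α7-integrin, with CD45, Sca1, CD31 and CD11b negative, and were kept in medium with 20% fetal bovine serum, so all of them had left the muscle and were in culture. RNA came from 5000 to 10000 cells and its cDNA was amplified. The PGE2 dose is not given in the sources used here.

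Heat shock proteins keep other proteins folded. HSP70 proteins bind exposed hydrophobic stretches, J proteins such as DNAJB1 hand them clients and start their ATP cycle, and exchange factors such as HSPH1 and BAG3 reset it. HSP90 finishes the folding of many kinases and steroid receptors, and small heat shock proteins hold unfolded proteins without using ATP. HSF1 is kept inactive by chaperones in unstressed cells. After heat or other protein damage it forms trimers and binds heat shock elements, arrays of GAA units in alternating direction, in front of these genes. Some members are made at all times (Hspa8, Hsp90ab1), others mainly under stress (Hspa1a, Hspa1b). In muscle stem cells, dissociation and sorting are known to induce stress and early response genes.

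The stress-inducible HSP70 genes show at once a pair of units of the element, shorter than a full array, and a difficulty of measuring these genes. Hspa1a and Hspa1b are near copies lying side by side on chromosome 17 (mm10, GENCODE M21, minus strand: Hspa1a at chr17:34969190-34972156, Hspa1b at chr17:34956436-34959238). Their promoter windows of 250 bases before the start site are shown to let them be compared (RefSeq, GRCm38.p6, minus strand, 5′ to 3′: Hspa1a at chr17:34972157-34972406 and Hspa1b at chr17:34959239-34959488). Capitals mark a head-to-head heat shock element pair, GAANNTTC.
Hspa1a: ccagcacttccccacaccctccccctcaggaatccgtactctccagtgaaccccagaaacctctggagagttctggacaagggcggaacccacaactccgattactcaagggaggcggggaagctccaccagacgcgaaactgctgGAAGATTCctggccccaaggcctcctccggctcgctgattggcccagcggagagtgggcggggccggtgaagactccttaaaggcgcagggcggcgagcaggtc
Hspa1b: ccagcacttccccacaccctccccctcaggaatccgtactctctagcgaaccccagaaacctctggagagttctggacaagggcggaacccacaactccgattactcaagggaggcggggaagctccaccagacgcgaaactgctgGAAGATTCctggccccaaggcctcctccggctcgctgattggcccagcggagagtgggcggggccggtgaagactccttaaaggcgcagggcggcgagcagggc
The windows were identical at 247 of 250 positions (98.8%). The differences, Hspa1a base first and counted from 1 at the 5′ end of the window, were C44T, T47C and T249G. The element pair, GAAGATTC, lay 104 to 97 bases before the start in both.

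RefSeq windows were found for 6 of the 10 members, and 4 of these 6 held a pair on either strand, as GAANNTTC or as TTCNNGAA. Over all 32851 windows of this length, 12.8% held such a pair (6.69% the first form, 7.17% the second). Hspa1a and Hspa1b are among the 4, and their near-identical windows are not separate cases. Hspb1 had 2 pairs, 117 to 110 and 97 to 90 bases before its start, and Hsph1 had 1 tail-to-tail pair, TTCTCGAA, 33 to 26 bases before its RefSeq start. These stretches are printed with 10 bases on each side to show how the pairs sit (Hspb1 at chr5:135887792-135887839, plus strand; Hsph1 at chr5:149636352-149636379, minus strand).
Hspb1: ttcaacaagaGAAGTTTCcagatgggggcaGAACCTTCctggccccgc
Hsph1: ggtagaatctTTCTCGAAggctcgagaa
In GENCODE M21 the Hsph1 start lies 40 bases further upstream (gene at chr5:149614287-149636376), so its pair falls inside the gene as annotated there. The windows of Dnajb1 and Bag3 held neither form. None of the 6 held 3 units in a row (GAANNTTCNNGAA, in 0.466% of all windows), the full cAMP response element TGACGTCA (1.55%) or TATAAA (12.4%). The shorter cAMP response element TGACG (17.8%) was in the windows of Hspb1 and Dnajb1, and CCAAT (33.8%) in those of Hspa1a, Hspa1b, Dnajb1 and, at 2 places, Hsph1. A match describes the letters of a window and does not show that a factor binds there. Hsp90aa1, Hsp90ab1, Hspa8 and Hsf1 were not looked up elsewhere.

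The libraries were alike in scope and carried myogenic markers, though genes of the markers that the sort excluded were listed in some or all of them. Genes above 0 numbered 15400 to 17710 in the PGE2 libraries and 16446 to 19677 in the Vehicle libraries. Mitochondrial transcripts held 23.0% to 30.4% of the listed TPM with PGE2 and 20.9% to 33.6% with Vehicle. TPM is a share of a library corrected for transcript length, so levels of different genes can be compared on it, but it keeps no read depth, which is unknown here. All 8 myogenic markers were measured, with a summed 449 to 611 TPM in PGE2 libraries and 576 to 656 TPM in Vehicle libraries. Summed endothelial (6 genes), leukocyte (7 genes) and pericyte (6 genes) markers stayed at or below 9.78 TPM with PGE2 and 10.9 TPM with Vehicle. Muscle fibre markers (8 genes, Mb at 0 in every library) summed to 3.80 to 8.01 TPM with PGE2 and 8.45 to 10.3 TPM with Vehicle, and their part in the results below was not tested. Fibro-adipogenic markers (6 genes) summed to 24.9 to 45.5 TPM with PGE2 and 18.8 to 31.5 TPM with Vehicle, most of it Col3a1. Ly6a of that list, the gene of the Sca1 excluded by the sort, had 0, 13.55 and 0 TPM with PGE2. It had 2.22, 3.38 and 7.92 TPM with Vehicle. Itga7, the gene of the α7-integrin used in the sort, had 13.16, 2.69 and 4.18 TPM with PGE2 and 4.68, 7.24 and 10.45 TPM with Vehicle. Glial markers (5 genes) summed to 121 to 172 TPM with PGE2 and 107 to 167 TPM with Vehicle, nearly all of it Ncam1, which muscle precursors also express, and the 4 globin genes of the red cell list (5 genes) were at 0 in every library. In bulk RNA, fewer cells of a type and less RNA per cell cannot be told apart.

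The 10 genes differed widely in abundance, with both HSP90 genes at the top and the inducible HSP70 pair at the bottom. By mean TPM over the 6 libraries, the HSP90 genes stood at the top (Hsp90aa1 ranked 15 and Hsp90ab1 19 of 12781 tested genes), followed by Hspa8 (61) and Hsph1 (272). Bag3 (2607), Dnajb1 (3940), Hsf1 (4651) and Hspb1 (5520) lay in the middle, and the inducible pair Hspa1b (10124) and Hspa1a (10717) near the bottom. The steps from Hsp90ab1 to Hspa8, Hspa8 to Hsph1, Hsph1 to Bag3 and Hspb1 to Hspa1b were larger than the spread of the libraries, as the lowest value of the upper gene exceeded the highest of the lower one. The other neighbours overlapped. Hsp90aa1 was above Hsp90ab1 in 5 of 6 libraries, Bag3 above Dnajb1 in 5, Dnajb1 above Hsf1 in 4, Hsf1 above Hspb1 in 4, and Hspa1b above Hspa1a in 4. This order holds for single rows. Summed with genes that share 5% or more of its 50-base stretches, Hspa8 had 3949 TPM in PGE2 1, above Hsp90ab1 there (2407 TPM). Summed likewise, the inducible pair reached 10.69 TPM in PGE2 2, above the lowest Hspb1 value (8.16 TPM, Vehicle 1). Together the 10 genes made up 0.861%, 1.36% and 1.24% of the listed TPM in PGE2 libraries 1 to 3, and 1.35%, 1.17% and 1.09% in Vehicle libraries 1 to 3, and the groups overlapped.

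**Figure D1:**
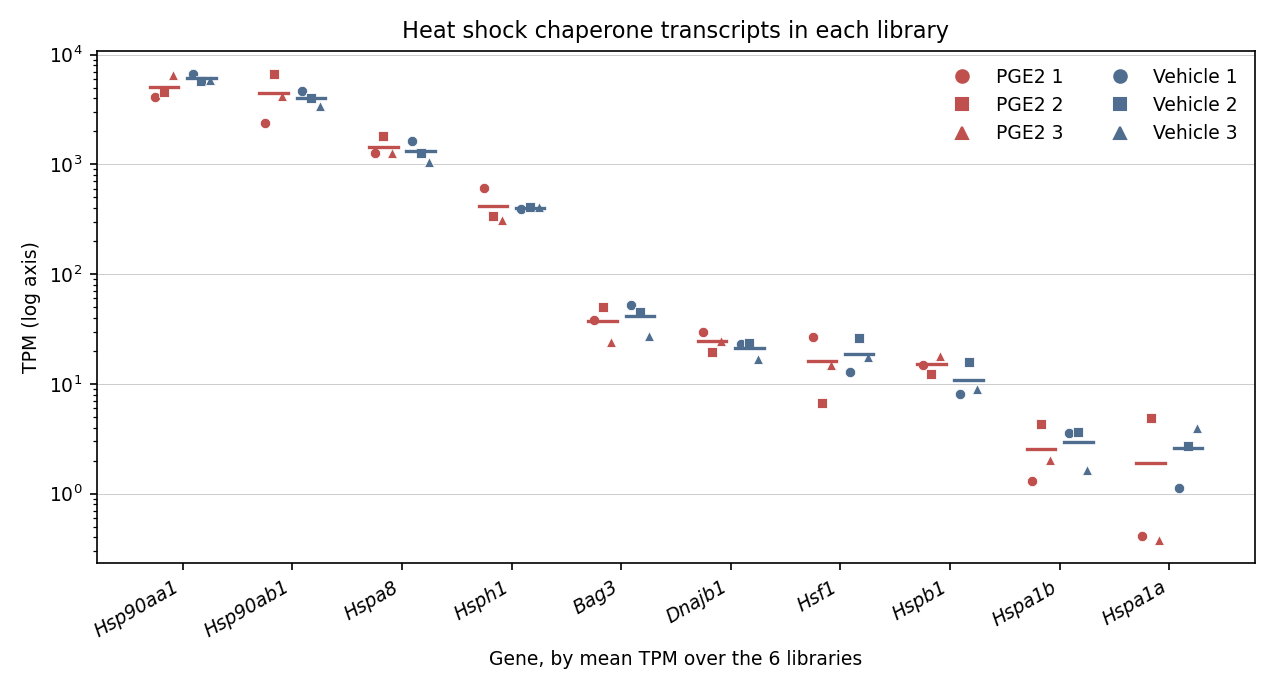
TPM of each heat shock chaperone gene in each library on a log axis, PGE2 in red left of Vehicle in blue, with a bar at each group mean. The groups overlap for all 10 genes, and the levels run from 6664.64 TPM (Hsp90ab1, PGE2 2) to 0.38 TPM (Hspa1a, PGE2 3).

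No difference between PGE2 and Vehicle passed the test for any of the 10 genes, and the libraries of the groups overlapped for each of them. All 10 passed the filter of 1 TPM in at least 3 libraries, Hspa1a through 1 PGE2 and 3 Vehicle libraries. In limma's moderated test on log2(TPM + 1), 0 of 10 had a Benjamini-Hochberg adjusted p under 0.05, against 0% of all 12781 tested genes, among which the smallest adjusted p was 0.0704. At an unadjusted p under 0.05, 0 of 10 passed, against 464 genes or 3.63% of all, so that a count of 0 among 10 is near the background. The count over all genes was 979 without PGE2 1 and 758 without PGE2 3, and that of the members stayed at 0. In 0 of 10 did every PGE2 library lie above every Vehicle library (3.18% of all genes), and in 0 of 10 below (4.84%). The fit placed 4 members higher and 6 lower with PGE2; their median log2 change was -0.09, against -0.07 over all tested genes (5614 higher, 7167 lower). The members' 95% intervals reached a median of 0.94 to either side of the estimate on the log2 scale, against 1.02 for tested genes averaging at least 5 TPM. For the members and every tested gene of the related lists, limma's Benjamini-Hochberg adjusted p over all genes was 0.9999. No adjusted p is given for the other genes named below.

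**Figure D2:**
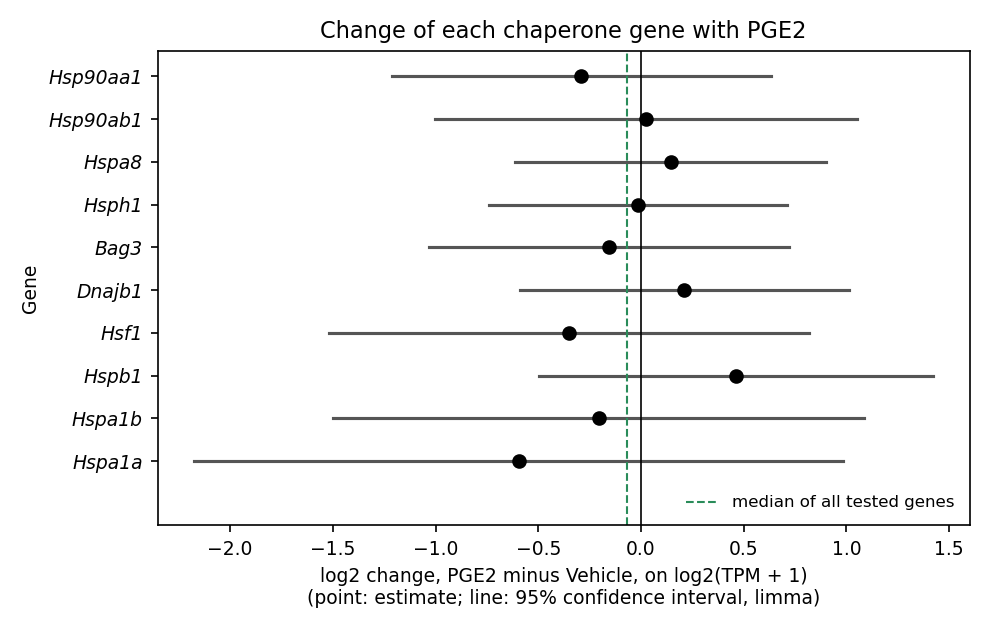
Log2 change of each heat shock chaperone gene, PGE2 minus Vehicle on log2(TPM + 1), as the limma estimate with its 95% confidence interval. Every interval crosses 0, and the dashed line marks the median of all tested genes, -0.07.

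Hsf1, the factor that switches on the others, was listed at 26.66, 6.67 and 14.96 TPM in PGE2 libraries 1 to 3, and at 12.79, 26.16 and 17.74 TPM in Vehicle libraries 1 to 3. PGE2 libraries held both its highest and its lowest value, 4.00-fold apart. Hsf1 averaged 16.1 ± 10.04 TPM with PGE2 and 18.9 ± 6.76 TPM with Vehicle (SD, n = 3 each), a log2 change of -0.35 with a 95% interval of -1.52 to 0.82 (limma unadjusted p = 0.519). Without PGE2 2 the estimate was 0.13. Since HSF1 is controlled mainly as a protein, its transcript level says little of its activity. Hsf2, a related factor active in development, had 17.38, 49.24 and 22.25 TPM with PGE2 and 22.11, 18.29 and 28.79 TPM with Vehicle. Hsbp1, whose small protein binds the trimer region of HSF1, had 45.94, 31.42 and 42.33 TPM with PGE2 and 44.10, 54.55 and 47.30 TPM with Vehicle (log2 change -0.29, limma unadjusted p = 0.372). Of the 5 other genes of the HSF list, these 2 could be tested and 0 passed. Hsf4, the lens factor, was at 0 in every library.

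The HSP90 genes were the most abundant members, and the one that varied more was the constitutive one. Hsp90aa1, the stress-responsive α form (chr12:110690605-110702728), had 4155.15, 4609.93 and 6475.75 TPM with PGE2 and 6605.48, 5788.47 and 5932.63 TPM with Vehicle. PGE2 1 and PGE2 2 lay below all 3 Vehicle libraries, while PGE2 3 lay among them. The means were 5080 ± 1230 TPM with PGE2 and 6109 ± 436 TPM with Vehicle (SD, n = 3 each), a log2 change of -0.29 with an interval of -1.21 to 0.63 (limma unadjusted p = 0.499). Hsp90ab1, the constitutive β form (chr17:45567775-45573271), had 2406.84, 6664.64 and 4224.72 TPM with PGE2 and 4661.15, 4058.35 and 3411.72 TPM with Vehicle. PGE2 1 was the lowest of all 6 libraries and PGE2 2 the highest, 2.77-fold apart, against 1.37-fold between the extreme Vehicle libraries. The means were 4432 ± 2136 TPM with PGE2 and 4044 ± 625 TPM with Vehicle, a log2 change of 0.02 with an interval of -1.005 to 1.05 (limma unadjusted p = 0.960). Its sign turned in 3 of the 6 fits that left out a library, to -0.33 without PGE2 2, -0.0021 without PGE2 3 and -0.09 without Vehicle 3.

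The α form exceeded the β form by a factor of 1.73, 0.692 and 1.53 in PGE2 libraries 1 to 3, and of 1.42, 1.43 and 1.74 in Vehicle libraries 1 to 3. PGE2 2 was the only library in which the β form led. Both forms together had 6562, 11275 and 10700.5 TPM with PGE2 and 11267, 9847 and 9344 TPM with Vehicle, so PGE2 1 stood below the other libraries and the others overlapped.

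Hspa8 encodes HSC70, the HSP70 made in all cells (chr9:40800984-40810087). It had 1260.31, 1825.59 and 1268.27 TPM with PGE2 and 1625.65, 1262.06 and 1052.43 TPM with Vehicle. The highest value was in PGE2 2 and the lowest in Vehicle 3, and the remaining values interleaved. Hspa8 averaged 1451 ± 324 TPM with PGE2 and 1313 ± 290 TPM with Vehicle (SD, n = 3 each), a log2 change of 0.14 with an interval of -0.61 to 0.90 (limma unadjusted p = 0.679). Without PGE2 2 it was -0.03, and without Vehicle 3 it was -0.0034.

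The inducible pair stayed low in both groups. Hspa1b had 1.31, 4.32 and 2.01 TPM with PGE2 and 3.57, 3.68 and 1.65 TPM with Vehicle. Hspa1a had 0.41, 4.89 and 0.38 TPM with PGE2 and 1.13, 2.73 and 3.96 TPM with Vehicle. For both genes PGE2 2 held the highest value, and for Hspa1a the other PGE2 libraries held the lowest ones. Hspa1b averaged 2.55 ± 1.58 TPM with PGE2 and 2.97 ± 1.14 TPM with Vehicle (log2 change -0.21, interval -1.497 to 1.09), and without PGE2 1 the estimate was 0.06. Hspa1a averaged 1.89 ± 2.60 TPM with PGE2 and 2.61 ± 1.42 TPM with Vehicle (log2 change -0.59, interval -2.17 to 0.99, limma unadjusted p = 0.422). The Hspa1a estimate depended on single libraries, at -1.29 without PGE2 2, -0.93 without Vehicle 1, -0.32 without Vehicle 3, -0.26 without PGE2 1 and -0.24 without PGE2 3. It depended on the pseudocount as well, at -1.18 with 0.1 TPM and -0.19 with 5 TPM, since genes this low are shrunk on the log2(TPM + 1) scale. Hspa8 exceeded the sum of the pair 733-fold, 198-fold and 531-fold in the PGE2 libraries, and 346-fold, 197-fold and 188-fold in the Vehicle libraries.

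How reads were split between the pair bears on each gene alone. Of all 50-base stretches in its transcripts, 66.3% of Hspa1a and 62.3% of Hspa1b occur in another annotated gene on either strand, mostly in each other. The shared part covers 82.3% of the stretches of the Hspa1a coding sequence and 57.7% of those of its 5′ untranslated region, but 0% of those of its 3′ untranslated region. Hspa1a held 23.8%, 53.1% and 15.9% of the pair's TPM with PGE2 and 24.0%, 42.6% and 70.6% with Vehicle. Summed, the pair had 1.72, 9.21 and 2.39 TPM with PGE2 and 4.70, 6.41 and 5.61 TPM with Vehicle, so the Vehicle sums lay between those of the PGE2 libraries (log2 change -0.52, interval -1.89 to 0.85). With the 3 further genes that share their sequence added, Hspa1l among them, the change was 0.26 (interval -0.79 to 1.31).

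Hspa8 shares sequence with retrocopies, and here the split differed between libraries. Of its 50-base stretches 39.4% occur in other genes. The copies with the most shared sequence were the processed pseudogene Gm15459 (chr5:5781615-5783555), the noncoding RNA gene Gm26825 on its opposite strand (chr5:5781530-5783636) and the processed pseudogene Gm8355 (chr10:14745362-14747302). Of their own stretches, 86.8%, 81.8% and 57.0% in that order occur in Hspa8. A stretch of 60 bases, coding bases 55 to 114 of Hspa8, is printed to show how close the pseudogenes are, with capitals at the positions where any of the 3 differs.
Hspa8: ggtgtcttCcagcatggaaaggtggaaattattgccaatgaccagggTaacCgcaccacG
Gm15459: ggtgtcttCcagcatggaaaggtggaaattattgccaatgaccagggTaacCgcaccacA
Gm8355: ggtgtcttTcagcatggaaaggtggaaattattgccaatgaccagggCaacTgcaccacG
From Hspa8, and counted from the first base printed, Gm15459 differed by G60A and Gm8355 by C9T, T48C and C52T. Gm15459 was listed at 1337.16, 216.40 and 176.78 TPM with PGE2 and 397.24, 355.15 and 596.16 TPM with Vehicle. Gm8355 was listed at 1000.61, 131.81 and 0 TPM with PGE2 and 648.22, 161.39 and 6.63 TPM with Vehicle. Gm26825 was listed at 350.47, 476.78 and 393.28 TPM with PGE2 and 5.90, 342.75 and 164.58 TPM with Vehicle, but whether reads were counted by strand is not given in the sources used here. PGE2 1 thus held the highest listed value of both pseudogenes.

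Of the TPM of Hspa8 and these 3 copies, Hspa8 itself took 31.9%, 68.9% and 69.0% with PGE2 and 60.7%, 59.5% and 57.8% with Vehicle. The PGE2 1 share was the lowest, while the other PGE2 libraries exceeded all 3 Vehicle libraries. Summed with every gene that shares 5% or more of its stretches, Hspa8 came to 3949, 2654 and 1840 TPM with PGE2 and 2679, 2123 and 1824 TPM with Vehicle. The groups overlapped (log2 change 0.30, interval -0.59 to 1.19), and PGE2 1 became the highest library where PGE2 2 had been.

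Hsp90aa1 also has copies, and its share of their joint TPM was nearly constant in the Vehicle libraries and lower in PGE2 1 and PGE2 2. Of its stretches 47.5% occur in other genes, chiefly the transcribed pseudogene Gm12346 (chr11:77293444-77295898) and the processed pseudogene Gm5844 (chr3:18008806-18010996). Gm12346 was listed at 1079.58, 1610.65 and 1077.06 TPM with PGE2 and 1068.68, 977.88 and 990.85 TPM with Vehicle. It was thus above all Vehicle libraries in all 3 PGE2 libraries, as 3.18% of all tested genes were, but PGE2 1 and PGE2 3 were close to Vehicle 1. Gm5844 was listed at 167.40, 522.63 and 159.18 TPM with PGE2 and 211.90, 143.07 and 77.42 TPM with Vehicle. Hsp90aa1 itself took 76.9%, 68.4% and 84.0% of the TPM of the 3 genes with PGE2 and 83.8%, 83.8% and 84.7% with Vehicle. Summed with its copies, Hsp90aa1 changed by -0.15 on the log2 scale (interval -1.09 to 0.80). Of the Hsp90ab1 stretches 3.44% occur elsewhere, and the cause of its wide spread among PGE2 libraries was not tested. Hsph1, Bag3 and Hsf1 share 0%.

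**Figure D3:**
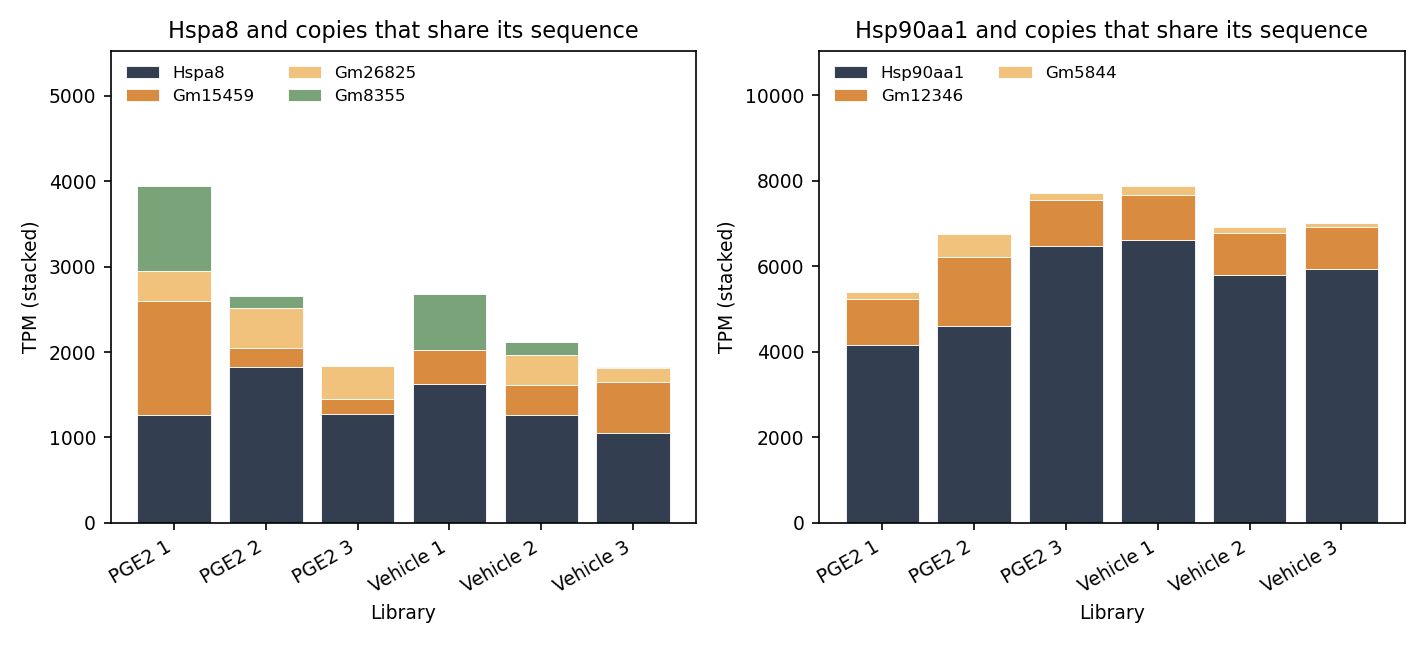
Stacked TPM of Hspa8 (left) and Hsp90aa1 (right) with the copies that share most of their sequence, in each PGE2 library and then each Vehicle library. In PGE2 1 the Hspa8 copies exceed Hspa8 itself, which holds 31.9% of the stack, against 57.8% to 60.7% in Vehicle libraries.

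The HSP70 helpers differed in how steady they were. Hsph1 encodes HSP110, which exchanges nucleotide on HSP70 and helps dissolve aggregates. It had 607.26, 336.30 and 311.20 TPM with PGE2 and 396.20, 405.58 and 408.66 TPM with Vehicle. PGE2 1 was above and the other PGE2 libraries below all 3 Vehicle libraries, which lay within 1.03-fold of each other. The means were 418 ± 164 TPM with PGE2 and 403 ± 6.49 TPM with Vehicle (SD, n = 3 each), a log2 change of -0.02 with an interval of -0.74 to 0.71 (limma unadjusted p = 0.963). The estimate was 0.11 without PGE2 2 and 0.16 without PGE2 3. Relative to the Hspa8 row, Hsph1 stood at 0.482, 0.184 and 0.245 with PGE2 and 0.244, 0.321 and 0.388 with Vehicle. In PGE2 1 that row held 31.9% of the TPM of Hspa8 and its named copies, so the ratio there depends on how reads were split.

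Dnajb1, the J protein gene (chr8:83608193-83612653) induced with Hspa1a in heat-shocked cells, had 29.58, 19.40 and 24.81 TPM with PGE2 and 22.91, 23.50 and 16.70 TPM with Vehicle. PGE2 1 and PGE2 3 lay above all Vehicle libraries, and PGE2 2 below 2 of the 3. It averaged 24.6 ± 5.09 TPM with PGE2 and 21.0 ± 3.77 TPM with Vehicle (log2 change 0.21, interval -0.59 to 1.01, limma unadjusted p = 0.570).

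Bag3 encodes an HSP70 partner that steers damaged filamin and other muscle proteins to autophagy (chr7:128523616-128546981). It had 37.92, 50.14 and 23.97 TPM with PGE2 and 52.27, 44.84 and 27.20 TPM with Vehicle. PGE2 3 and Vehicle 3 were the lowest of their groups, and the groups overlapped throughout. The means were 37.3 ± 13.1 TPM with PGE2 and 41.4 ± 12.9 TPM with Vehicle (log2 change -0.16, interval -1.03 to 0.72, limma unadjusted p = 0.699). The sign turned without PGE2 3 (0.12) and without Vehicle 1 (0.03).

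Hspb1 encodes HSP25, a small heat shock protein that also binds actin (chr5:135887919-135889563), and had the smallest unadjusted p of the 10. It had 14.96, 12.30 and 17.92 TPM with PGE2 and 8.16, 15.67 and 9.04 TPM with Vehicle. All PGE2 libraries lay above Vehicle 1 and Vehicle 3, and Vehicle 2 lay above PGE2 1 and PGE2 2. The means were 15.1 ± 2.81 TPM with PGE2 and 10.96 ± 4.11 TPM with Vehicle (SD, n = 3 each), a log2 change of 0.46 with an interval of -0.49 to 1.42 (limma unadjusted p = 0.307). Of its stretches 50.1% occur in 2 other genes, mainly the processed pseudogene Hsp25-ps1 (chr13:45078498-45079127), listed at 0, 2.70 and 4.17 TPM with PGE2 and 1.01, 10.66 and 12.21 TPM with Vehicle. Summed with both, Hspb1 changed by -0.03 (interval -1.04 to 0.98). Reads of the gene and reads of its copies were not told apart here.

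The 10 genes did not deviate from their means together. On the log2(TPM + 1) scale, PGE2 2 was the highest library for 4 of them (Hsp90ab1, Hspa8, Hspa1a and Hspa1b) and the lowest for Hsf1. PGE2 1 was highest for 3 (Hsph1, Dnajb1 and Hsf1) and lowest for 3 (Hsp90aa1, Hsp90ab1 and Hspa1b). PGE2 3 was highest for Hspb1 and lowest for 3 (Hsph1, Bag3 and Hspa1a). Vehicle 2 held no extreme value. Over all tested genes, PGE2 2 was highest for 18.2% and lowest for 27.5%. In the same order the shares were 30.1% and 17.0% for PGE2 1, 11.1% and 24.3% for PGE2 3, and 9.26% and 7.20% for Vehicle 2. The counts among the 10 genes were not tested against these shares. The rows of the HSP70 genes Hspa8, Hspa1a and Hspa1b were highest in PGE2 2, by 0.43, 1.09 and 0.57 above their own means in that order. Dnajb1, which is induced with the inducible pair, was 0.20 below its mean there. Hspa1a and Hspa1b share most of their sequence and are not separate readings. Summed with the genes that share 5% or more of its stretches, Hspa8 was highest in PGE2 1 (3949 TPM, against 2654 TPM in PGE2 2).

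**Figure D4:**
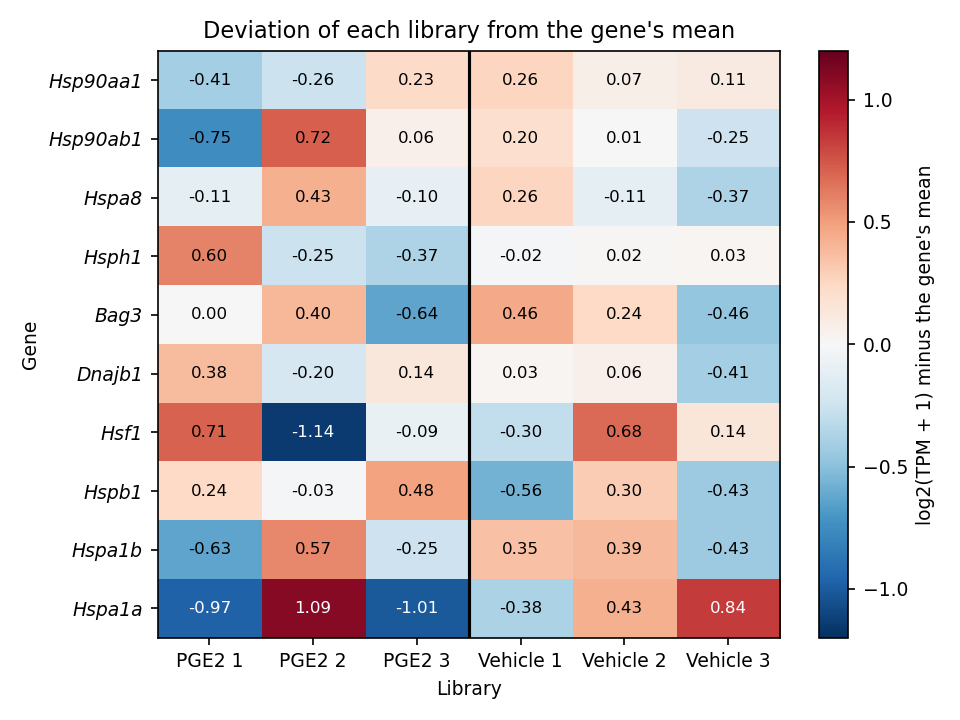
Deviation of log2(TPM + 1) in each library from the gene's mean over the 6 libraries, for the 10 heat shock chaperone genes, PGE2 libraries left of Vehicle libraries. The largest deviations are those of Hsf1 (-1.14) and Hspa1a (1.09) in PGE2 2.

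By the median, the spread within groups was wider with PGE2 than with Vehicle, for these genes as for the rest, though not for Hspb1 and Hspa8. The SD of log2(TPM + 1) over 3 libraries had a median of 0.524 over the 10 genes with PGE2 and 0.389 with Vehicle. Over the 8370 tested genes averaging at least 5 TPM the medians were 0.588 with PGE2 and 0.366 with Vehicle. As a ratio the gap was widest for Hsph1, at 0.526 with PGE2 and 0.0232 with Vehicle. It was 0.335 with PGE2 and 0.101 with Vehicle for Hsp90aa1, and 0.736 with PGE2 and 0.226 with Vehicle for Hsp90ab1. The difference in spread was not tested.

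Hspa1a, whose SD over the 6 libraries was the largest of the 10 (0.914), was used to look for like patterns. Among 7384 tested protein-coding genes averaging at least 5 TPM, the 5 nearest by root mean square difference of centred log2(TPM + 1) over the 6 libraries were Dusp10 (0.278), Zfp36 (0.317), Rit1 (0.321), Ppme1 (0.332) and Pcbp4 (0.361). Dusp10, a phosphatase of p38 and JNK kinases, had 8.32, 33.41 and 6.26 TPM with PGE2 and 16.56, 19.68 and 21.02 TPM with Vehicle. Zfp36, an early response gene for an RNA-binding protein, had 5.65, 17.17 and 6.39 TPM with PGE2 and 5.49, 14.89 and 23.08 TPM with Vehicle. Their likeness to Hspa1a follows from how they were chosen and is not a separate result. It was not complete, as Zfp36 was highest in Vehicle 3 and lowest in Vehicle 1.

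The wider chaperone network was then compared, and again no gene passed. Of 86 other genes in 9 lists, 75 could be tested. By limma's adjusted p 0 passed, and 2 had an unadjusted p under 0.05 (background 3.63%). The fit placed 31 higher and 44 lower with PGE2, and the median log2 change was -0.08, beside -0.07 over all genes. Every PGE2 library exceeded every Vehicle library for 1 of the 75 (3.18% of all genes), and lay below for 5 (4.84% of all genes).

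The genes with the smallest unadjusted p were lower with PGE2, and both encode partners of the members. Dnajb4, a J protein that works with HSP70 in muscle, had 47.46, 40.47 and 75.37 TPM with PGE2 and 95.45, 79.80 and 121.36 TPM with Vehicle. All PGE2 values lay below all Vehicle values, with a log2 change of -0.88 (interval -1.63 to -0.13, limma unadjusted p = 0.0261). Hspb8, the small heat shock protein that binds BAG3, had 18.09, 28.44 and 9.13 TPM with PGE2 and 38.88, 29.87 and 36.95 TPM with Vehicle. PGE2 2 and Vehicle 2 were close, but the groups did not overlap (log2 change -1.01, interval -1.98 to -0.04, limma unadjusted p = 0.0423). Neither passed the adjusted threshold.

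Among the other small heat shock proteins, 3 of 8 genes were tested, 1 higher and 2 lower by estimate (median -0.21). Cryab, the αB-crystallin that is abundant in muscle, had 33.71, 47.79 and 59.27 TPM with PGE2 and 26.24, 45.53 and 49.60 TPM with Vehicle. Hspb6 had 4.82 to 6.72 TPM with PGE2 and 3.50 to 13.46 TPM with Vehicle. Hspb3, Cryaa and Hspb9 were at 0 in every library.

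Of the 11 other HSP70 and HSP110 genes 9 were tested, 4 higher and 5 lower (median -0.02). Hspa4l, an HSP110 relative, was the one that did not overlap, with 12.84, 10.85 and 7.49 TPM with PGE2 and 16.37, 14.67 and 17.22 TPM with Vehicle (log2 change -0.61, limma unadjusted p = 0.163). Hspa2, the HSP70 best known from spermatogenesis, had 3.91, 17.36 and 3.59 TPM with PGE2 and 6.83, 3.85 and 1.05 TPM with Vehicle, high in PGE2 2 as Hspa1a was. The mitochondrial HSP70, Hspa9, had 277.15, 213.59 and 152.83 TPM with PGE2 and 172.03, 175.81 and 174.22 TPM with Vehicle. The HSP70 of the endoplasmic reticulum, Hspa5, had 555.37, 352.52 and 262.08 TPM with PGE2 and 435.70, 357.66 and 266.88 TPM with Vehicle.

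All 19 other J protein genes were tested, 9 higher and 10 lower (median -0.05). Dnajb11, a J protein of the endoplasmic reticulum, had 109.35, 88.94 and 156.26 TPM with PGE2 and 158.35, 162.98 and 190.96 TPM with Vehicle, without overlap (log2 change -0.56, limma unadjusted p = 0.0938). Dnajc8, which is linked to splicing, had 39.07, 93.40 and 92.82 TPM with PGE2 and 30.13, 47.30 and 70.08 TPM with Vehicle. The gene whose PGE2 values all exceeded the Vehicle values was Dnajb12, with 6.17, 9.75 and 8.25 TPM with PGE2 and 5.93, 5.77 and 4.50 TPM with Vehicle (log2 change 0.49, limma unadjusted p = 0.323).

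The 9 nucleotide exchange factor genes were all tested, 3 higher and 6 lower (median -0.15). Bag2 had 18.39, 0.66 and 7.39 TPM with PGE2 and 10.59, 11.53 and 11.54 TPM with Vehicle, so PGE2 libraries held its highest and lowest values, as they did for Hsf1. Bag4 had 6.74 to 20.87 TPM with PGE2 and 12.44 to 22.48 TPM with Vehicle. Grpel1, the mitochondrial exchange factor, had 6.83 to 23.62 TPM with PGE2 and 4.26 to 11.73 TPM with Vehicle.

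The 16 HSP90 co-chaperone genes were split evenly, 8 higher and 8 lower (median 0.01). Ptges3, the p23 co-chaperone that was also described as a PGE2 synthase, had 786.45, 857.23 and 933.05 TPM with PGE2 and 1088.16, 902.65 and 1141.33 TPM with Vehicle (log2 change -0.28, limma unadjusted p = 0.370). Stip1, which links HSP70 to HSP90, had 123.06, 91.59 and 89.64 TPM with PGE2 and 96.99, 114.55 and 98.85 TPM with Vehicle. Stub1, the ubiquitin ligase CHIP that binds both chaperones, had 0, 0.77 and 2.22 TPM with PGE2 and 2.16, 4.25 and 2.83 TPM with Vehicle, the lowest estimate of the list (log2 change -1.16, limma unadjusted p = 0.0869). That estimate was -2.39 with a pseudocount of 0.1 TPM, -0.44 with 5 TPM and -0.74 without PGE2 1. Cdc37l1, a relative of the kinase co-chaperone CDC37, had 32.35 to 50.07 TPM with PGE2 and 21.54 to 33.50 TPM with Vehicle. Ahsa2, related to the HSP90 ATPase activator AHA1, had 120.23 to 240.68 TPM with PGE2 and 138.26 to 151.58 TPM with Vehicle.

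Of the 4 genes for HSP90 and HSP60 of organelles, 1 was higher and 3 lower (median -0.18). Hsp90b1, the HSP90 of the endoplasmic reticulum, had 1030.39, 1027.52 and 1002.55 TPM with PGE2 and 1252.17, 1171.72 and 1318.76 TPM with Vehicle. Its PGE2 libraries lay close together and below all Vehicle libraries, with a log2 change of -0.29 (limma unadjusted p = 0.349 in a fit that shares variance across genes). Hspe1, the mitochondrial HSP10, had 305.22 to 784.42 TPM with PGE2 and 545.61 to 787.40 TPM with Vehicle, and the mitochondrial HSP90, Trap1, had 17.20 to 24.54 TPM with PGE2 and 18.16 to 23.84 TPM with Vehicle.

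The 8 TRiC genes, which encode the chaperonin that folds actin and tubulin, were 4 higher and 4 lower (median -0.03). All 8 had their highest value in PGE2 1, against 30.1% of all tested genes. Summed they had 3773, 1814 and 1765 TPM with PGE2 and 2183, 2357 and 2458 TPM with Vehicle, so 1 PGE2 library lay above and the others below all Vehicle libraries, the pattern seen for Hsph1. Cct3 had 589.89, 164.02 and 196.83 TPM with PGE2 and 244.94, 176.06 and 118.69 TPM with Vehicle. Cct7 had 106.33 to 199.57 TPM with PGE2 and 94.60 to 134.27 TPM with Vehicle, and Cct8 had 128.35 to 256.91 TPM with PGE2 and 182.51 to 222.53 TPM with Vehicle.

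Of 20 further targets of HSF1, several of them counted above, 18 were tested, 7 higher and 11 lower (median -0.18, adjusted calls 0). The 3 without overlap, Hspb8, Dnajb4 and Hspa4l, lay below Vehicle with PGE2 (4.84% of all genes did) and are among the 5 of the network counted above.

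**Figure D5:**
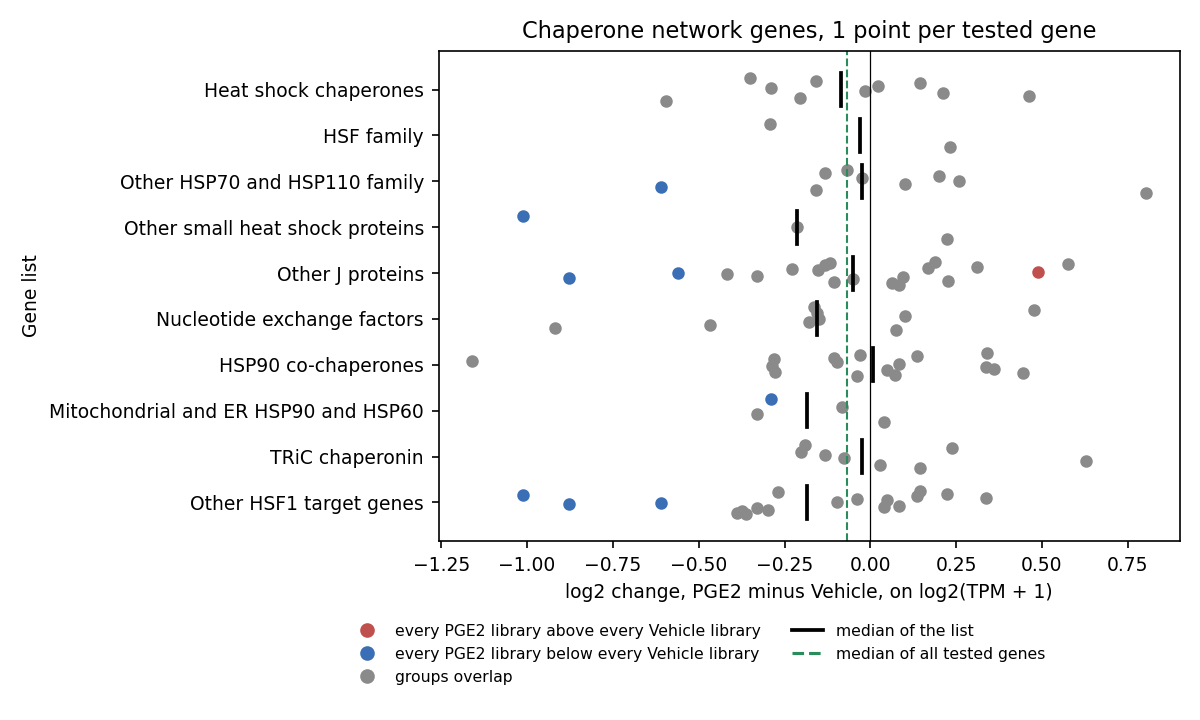
Log2 change (PGE2 minus Vehicle on log2(TPM + 1)) of each tested gene in the heat shock chaperone list and in 9 related lists, 1 point per gene, with the list median as a bar and the median of all tested genes, -0.07, as a dashed line. Blue points, with all PGE2 libraries below all Vehicle libraries, include Hspb8 (-1.01) and Dnajb4 (-0.88), and none lies in the heat shock chaperone row.

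Early response genes are often induced together with Hspa1a when muscle stem cells are taken from tissue, and were compared for that reason. Of 12 genes 11 were tested, 6 higher and 5 lower with PGE2 (median 0.07), with 0 adjusted calls. Fos had 1.77, 34.21 and 6.74 TPM with PGE2 and 0.63, 1.59 and 10.88 TPM with Vehicle, highest in PGE2 2 as Hspa1a was (log2 change 1.30, limma unadjusted p = 0.217). Without PGE2 2 the Fos estimate was 0.33, without Vehicle 1 it was 0.72, and it was 2.16 without PGE2 1 and 2.15 without Vehicle 3. Jun had 66.95, 65.08 and 38.56 TPM with PGE2 and 79.79, 85.20 and 82.46 TPM with Vehicle, without overlap (log2 change -0.57, limma unadjusted p = 0.102). Ier3 had 16.61, 11.16 and 4.67 TPM with PGE2 and 4.06, 3.34 and 4.87 TPM with Vehicle (log2 change 1.08, limma unadjusted p = 0.0796).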

How the data were processed

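RNA sequencing of 6 libraries, 3 with PGE2 and 3 with Vehicle, was grouped by the sample titles. The values the authors deposited are TPM, in 1 table with 1 column per library; the unit was inferred from the values, which sum to 992357 to 995645 per library. Per the submitters' processing notes, STAR, RSEM and the build mm10 were used; versions and annotation release: not given in the sources used here. TPM keeps no read depth, and intervals that need it are left out. The labels speak of biological triplicates without naming separate animals or cultures, so p-values reflect only how far these libraries scatter, and part of that scatter may be technical.

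The filter, 1 TPM in 3 libraries or more, left 12781 genes. PGE2 was compared with Vehicle on log2(TPM + 1) with limma 3.58.1 in R 4.3.3 (two-sided, variance prior with a mean trend), adjusting p-values by Benjamini-Hochberg over all of them at a threshold of 0.05. Log2 changes are PGE2 minus Vehicle, and intervals are 95% confidence intervals of that fit. The fit was tested on simulated data. Sharing of 50-base stretches was computed from GENCODE M21 transcripts on both strands, and 42782 of the 43283 genes of the table were in that annotation. Promoter sequences are RefSeq, GRCm38.p6. Tables and figures were made in Python 3.11.15.

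The members and lists were chosen with earlier results of these data known. Named genes are all members, up to 3 genes with the smallest unadjusted p in each related list, Ptges3, Stip1, Stub1, Hspa5 and Hsf2 as fixed partners, the leading genes that share sequence, and the 5 genes most like Hspa1a. Of the genes that share sequence, those of little weight are not listed. Dnajb12, Hsf4, Hspb3, Cryaa, Hspb9, Ly6a, Ptprc, Pecam1, Itgam and Itga7 fall outside this rule and were chosen after their values were seen. Alternatives covered the pseudocount, filter, scaling, variance prior, library weights, replicate block, single libraries left out, and sums over shared sequence. The labels give no batch, so the replicate numbers were not used as pairs in the main fit.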

Additional observations from a re-analysis of the deposited data

How the results depend on the processing

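No member passed the threshold, or an unadjusted p under 0.05 in limma, under any alternative run. Over all genes 4 passed with the variance prior without a trend and 1 with the robust prior, and with single libraries left out 0 to 2 passed (2 without PGE2 3, and 1 each without PGE2 1, PGE2 2 and Vehicle 1), against 0 as reported. All members' intervals hold 0, and several estimates changed sign. Of the members' values 160 kept their sign and 22 did not, and of the other named genes' 474 kept it and 18 did not. With median-ratio scaling Hsph1 became 0.040 and Stip1 0.015, and with quantile normalization Hsph1 0.055, Stip1 0.027 and Hsp90ab1 -0.095. Hsp90ab1 was -0.0030 when mitochondrial genes were left out of the scaling, and Hspa5 -0.063 with library weights. Summed with every gene that shares a 50-base stretch, Hspa1a and Hspa1b became 0.26, Hspb1 -0.028 and Dnajb1 -0.082. The Dnajb1 sum holds 472 genes because of a short repeat, so sums over genes that share 5% or more were added after seeing the data, and gave 0.26 for Hspa1a and Hspa1b and -0.028 for Hspb1. The cause of the other changes of sign was not tested.

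With each library left out in turn, log2 changes ranged from -0.54 to 0.059 for Hspa1b, -0.32 to 0.16 for Hsph1, -0.33 to 0.40 for Hsp90ab1, -0.032 to 0.31 for Hspa8, -0.79 to 0.13 for Hsf1, -0.43 to 0.12 for Bag3, -1.29 to -0.24 for Hspa1a, -0.48 to -0.16 for Hsp90aa1, 0.061 to 0.37 for Dnajb1 and 0.30 to 0.73 for Hspb1. Among partners they ranged from -0.66 to 0.024 for Hspe1, -0.021 to 0.43 for Cct7, -0.45 to 0.044 for Cct8, -0.19 to 0.35 for Hspa5, -0.20 to 0.53 for Hsf2, -1.71 to 0.063 for Bag2, -0.043 to 0.78 for Grpel1, -0.19 to 0.041 for Stip1, -0.24 to 0.012 for Trap1, -0.054 to 0.44 for Cryab, -0.58 to 0.26 for Hspb6, -1.37 to -0.60 for Hspb8, -1.13 to -0.69 for Dnajb4, -1.58 to -0.74 for Stub1, 0.33 to 2.16 for Fos and 0.72 to 1.53 for Ier3. Against -0.07 as reported, the median of all genes was -0.17 without PGE2 1, -0.12 with library weights, -0.10 with a pseudocount of 0.1 TPM and without mitochondrial genes, -0.031 with a pseudocount of 5 TPM, -0.024 without PGE2 2, -0.023 with median-ratio scaling, -0.020 with no filter, -0.016 with quantile normalization and 0.0069 without PGE2 3. The members' median ran from -0.20 to 0.06 over the fits that left out a library.

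With the replicate number as a block, 0 genes passed and 482 had an unadjusted p under 0.05 in limma. The deviations of same-numbered libraries correlated across genes at -0.06, -0.04 and 0.07. With 3 libraries per group, neither these values nor the block can decide whether libraries were paired. Depth cannot be recovered from TPM, and members near 1 TPM (Hspa1a, Hspa1b) are the least certain.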

Other observations

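Hspa4, an HSP110 gene of the HSP70 list that was singled out after its values were seen, was the most abundant of that list and followed the order of Hsp90ab1 among the PGE2 libraries. It had 1382.57, 3558.60 and 2270.57 TPM with PGE2 and 3179.85, 2397.15 and 2031.28 TPM with Vehicle (log2 change -0.16, limma unadjusted p = 0.722). Its lowest value was in PGE2 1 and its highest in PGE2 2, as for Hsp90ab1, and among the Vehicle libraries both were highest in Vehicle 1 and lowest in Vehicle 3. Hsph1, of the same HSP110 family, was highest in PGE2 1.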
